A study of Mus musculus with 50 samples.

Results

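The 9 genes described here carry out and control fatty acid synthesis: Acly, Acaca and Fasn, which build the fatty acid, Elovl6, Scd1 and Scd2, which lengthen and desaturate it, and Srebf1, Mlxipl and Thrsp, which regulate the pathway. They were taken by gene symbol from the RPKM table, in which each symbol occurred in a single row, so that 9 of 37701 genes were used, and all 9 were among the 16733 genes that averaged 0.5 RPKM or more and were tested. RNA had been sequenced from 50 mammary gland tumors of female p53R270H/+WAPCre mice, 10 per treatment group, that were 8 weeks old when injections started, with vehicle in the control group and with insulin, glargine, X10 or IGF1 in the others. The injections were subcutaneous, were given every other day and went on until a tumor reached 1 cm3, and the mice were killed 24 h after the last of them. Every mouse, vehicle mice included, carried the heterozygous p53 mutation that WAP-driven Cre switches on in mammary epithelium. Glargine and X10 are modified insulins, IGF1 is insulin-like growth factor 1, and tumors are named here by their titles, in which Untreated marks the vehicle group. The study selected tumors of an epithelial to mesenchymal transition type, with a latency near the median of their group, so that the tumors are not a random draw from the mice.

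Fatty acids are made from citrate that has left the mitochondrion. ATP citrate lyase (Acly) releases acetyl-CoA from it, acetyl-CoA carboxylase (Acaca) turns this into malonyl-CoA, and fatty acid synthase (Fasn) joins these units into palmitate, after which Elovl6 elongates the chain and the stearoyl-CoA desaturases Scd1 and Scd2 introduce a double bond. The transcription factor SREBP1 (Srebf1) carries the insulin signal to these genes and ChREBP (Mlxipl) carries the glucose signal, while Thrsp (Spot 14) is a small nuclear protein of lipogenic tissues. Fat cells and the milk-producing mammary epithelium both use this pathway, which is why the amount of fat and of epithelium in each piece of tumor was considered beside the treatment.

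Library size, recovered from the steps between low RPKM values, was between 26.6 and 51.9 M reads per tumor, with group medians between 35.4 M reads (X10) and 44.0 M reads (vehicle). Fat content varied strongly: Adipoq (adiponectin), which is made by adipocytes, was between 0.055 and 49.9 RPKM with a median of 1.61 RPKM. Its mean was 7.02 ± 10.2 RPKM (SD, n = 10) in vehicle, 3.86 ± 5.74 in insulin, 13.9 ± 13.9 in glargine, 8.50 ± 15.3 in X10 and 1.70 ± 1.48 in IGF1 tumors. Of the 13 tumors with an Adipoq above 9.32 RPKM, 6 were glargine, 3 X10, 2 vehicle and 2 insulin tumors, and 0 were IGF1 tumors. Of 9 epithelial markers, Epcam had a median of 4.75 RPKM and Krt8 of 173.9 RPKM, and the sum of all 9 was between 12.5 and 5116 RPKM. A single tumor, Untreated_174, held that highest sum. In such pieces of tissue, fewer cells of a type and less RNA per cell cannot be told apart.

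Fasn was the most highly expressed member. It ranged from 133 to 660 RPKM around a median of 308 RPKM, and only 1.97% of the tested genes had a higher mean. Fasn took between 28.0% and 54.1% of the summed RPKM of the 9 genes, with a median of 40.7%. It lies on the minus strand of chromosome 11 (GRCm38, chr11:120805846-120824547) and is protein-coding, as are all 9 members in GENCODE M21. Acly followed with 101 to 313 RPKM and a median of 176 RPKM, and was lower than Fasn in 50 of 50 tumors. It lies on the minus strand at chr11:100476353-100528000. Acaca, on the plus strand at chr11:84129672-84401651, reached 27.9 to 119 RPKM with a median of 58.4 RPKM. These 3 synthesis genes varied little, by 4.95-fold for Fasn, 3.10-fold for Acly and 4.25-fold for Acaca between the lowest and the highest tumor.

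The promoters of Fasn and Acly are printed because these genes were the most alike pair of members across tumors (described later), and that of Thrsp because it followed fat content. Each is a 300-base window around a RefSeq transcription start (GRCm38.p6), 5′ to 3′ on the strand of the gene. Capitals mark CCAAT boxes (CCAAT, or ATTGG on the other strand) and GC boxes (GGGCGG, or CCGCCC).
Fasn, minus strand, chr11:120824498-120824797: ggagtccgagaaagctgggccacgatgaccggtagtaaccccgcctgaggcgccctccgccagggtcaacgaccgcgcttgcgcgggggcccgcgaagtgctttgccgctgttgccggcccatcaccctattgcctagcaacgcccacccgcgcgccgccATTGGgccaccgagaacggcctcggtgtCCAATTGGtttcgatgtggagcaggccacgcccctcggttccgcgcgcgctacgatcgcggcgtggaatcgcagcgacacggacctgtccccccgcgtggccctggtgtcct
Acly, minus strand, chr11:100527951-100528250: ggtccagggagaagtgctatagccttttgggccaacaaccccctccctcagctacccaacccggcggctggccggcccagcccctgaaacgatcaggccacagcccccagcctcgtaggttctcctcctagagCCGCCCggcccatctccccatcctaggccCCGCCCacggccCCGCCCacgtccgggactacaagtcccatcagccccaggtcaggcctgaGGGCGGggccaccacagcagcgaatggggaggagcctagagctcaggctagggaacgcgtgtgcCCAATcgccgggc
Thrsp, minus strand, chr7:97417501-97417800: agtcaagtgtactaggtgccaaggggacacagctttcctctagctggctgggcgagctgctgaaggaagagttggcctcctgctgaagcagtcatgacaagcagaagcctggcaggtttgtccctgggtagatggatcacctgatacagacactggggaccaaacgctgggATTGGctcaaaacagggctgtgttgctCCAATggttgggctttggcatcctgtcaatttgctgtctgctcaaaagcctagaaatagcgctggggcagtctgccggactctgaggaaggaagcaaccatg
The Fasn window held 3 CCAAT boxes, at 90, 62 and 59 bases before the start site; the last 2 overlap in the run CCAATTGG. Thrsp held 2, at 79 and 52 bases before the start. Acly held 1 CCAAT box, at 37 bases after the start, and 4 GC boxes, at 117, 88, 76 and 27 bases before it. A CCAAT box occurred in 37.4% and a GC box in 35.7% of 32851 RefSeq promoter windows of this length, so that both are common. The sterol regulatory element, searched as TCACNCCAC on both strands, occurred in 1.24% of windows and the E-box CACGTG in 7.15%. Of the 10 windows of the 7 members that were matched, the sterol element was found in a single Mlxipl window (chr5:135106641-135106940) and the E-box in another Mlxipl window (chr5:135089640-135089939). Scd1 and Scd2 were not matched. Sites that depart from these letters or lie outside the windows were not searched. The only Acaca window (chr11:84195188-84195487) lay inside the gene, downstream of its annotated start.

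The modifying enzymes were less uniform. Scd1, on the minus strand at chr19:44394455-44407879, ranged over 27.4-fold, from 6.81 to 186.7 RPKM, with a median of 33.3 RPKM. Its paralog Scd2, on the plus strand at chr19:44293674-44306864, ranged from 11.3 to 118.1 RPKM with a median of 47.7 RPKM. Scd2 was the higher of both in 36 of 50 tumors, and Scd1 in the other 14, of which 4 were vehicle, 2 insulin, 4 glargine, 3 X10 and 1 IGF1 tumors. Reads that match more than one Scd paralog can be lost or misplaced in the counting, so these levels are uncertain to that extent. The extremes met in a single tumor: Untreated_174 had the highest Scd1 (186.7 RPKM), the lowest Scd2 (11.3 RPKM) and the lowest Elovl6 (0.578 RPKM) of all tumors. This is the tumor with the highest epithelial sum, and its Adipoq was 0.175 RPKM. Elovl6, on the plus strand at chr3:129532355-129638495, was otherwise lowly expressed, with a median of 4.29 RPKM and a maximum of 10.7 RPKM in insulin_14.

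Among the regulators, Srebf1 was abundant and stable, whereas Mlxipl and Thrsp were near the lower limit in many tumors. Srebf1, on the minus strand at chr11:60199089-60222581, had a median of 90.6 RPKM and lay between 61.3 and 138 RPKM in 49 tumors. The remaining tumor, glargine_63, reached 254 RPKM. Mlxipl, on the plus strand at chr5:135089890-135138382, ranged from 0.050 to 3.52 RPKM with a median of 0.347 RPKM. The highest value belonged to insulin_15, and the next highest was 2.05 RPKM. Thrsp, on the minus strand at chr7:97412938-97417730, had the widest range of the 9 genes, from 0.016 to 15.3 RPKM with a median of 0.384 RPKM. At its lowest this amounts to about 1.47 reads, so that ratios between low Thrsp values carry a large counting error.

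In order of their medians the genes were Fasn, Acly, Srebf1, Acaca, Scd2, Scd1, Elovl6, Thrsp and Mlxipl. The order of neighbors held in 50 of 50 tumors for Fasn over Acly and for Scd1 over Elovl6, in 48 for Acly over Srebf1, in 46 for Srebf1 over Acaca and in 44 for Elovl6 over Thrsp. It held in 36 tumors for Acaca over Scd2 and in 27 for Thrsp over Mlxipl, so that these neighbors were not separated by their spread between tumors. The plot of levels by group shows the values of every tumor.

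**Figure D1:**
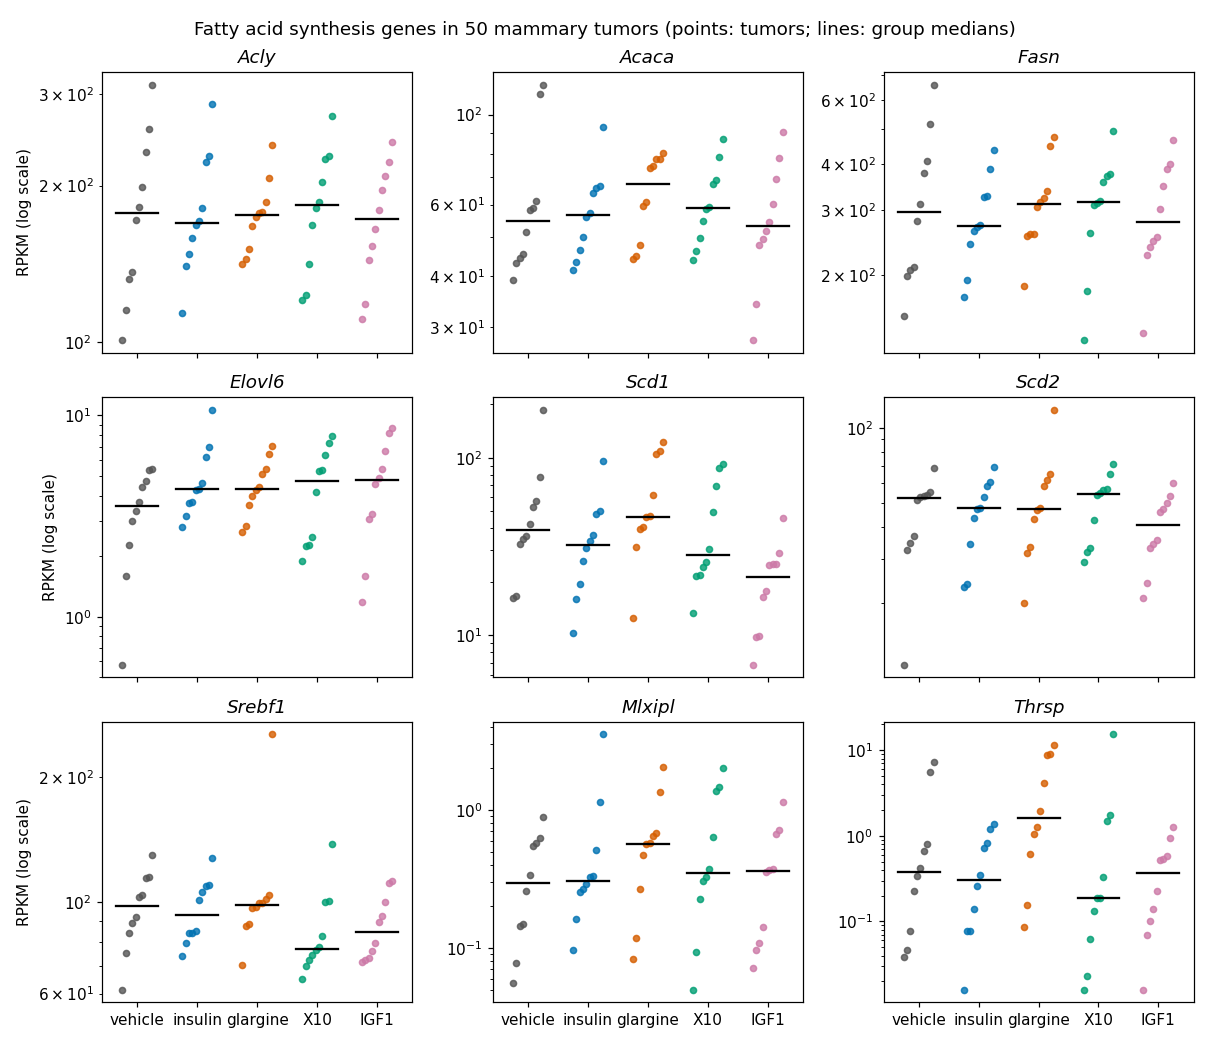
Level of the 9 members in RPKM (log scale) in the 5 treatment groups; each point is a tumor (10 per group) and each line a group median. Groups overlapped for all 9 genes, and single high tumors stood out for Scd1 (Untreated_174, 186.7 RPKM), Srebf1 (glargine_63, 254 RPKM) and Thrsp (X10_105, 15.3 RPKM).

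Next, it was asked how far each member followed the fat in the piece of tumor. With treatment as a term, the limma slope of log2(RPKM + 0.5) on log2(Adipoq RPKM + 0.5) passed an adjusted p of 0.05 for 1 of the 9 members, Thrsp, where 1.47% of all tested genes passed and 1.39% were higher. A member with a slope of 1 would double with each doubling of Adipoq. Thrsp had a slope of 0.38 (SE 0.079, adjusted p = 0.00352). All 9 adipocyte markers tested, Adipoq itself left out, also passed, with slopes of 0.84 for Cidec and 0.63 for Plin1. Thrsp was 15.3 RPKM in X10_105, which also had the highest Adipoq (49.9 RPKM), and 7.38 RPKM in Untreated_189, at an Adipoq of 33.4 RPKM. Across all tumors, Thrsp and Adipoq had a Pearson's r of 0.64 and a Spearman's rho of 0.69 (permutation p = 1e-05 for both, the smallest that 100000 permutations can give). Within groups r was 0.58, and without the 2 tumors farthest from the median Adipoq it was 0.60. With the score of 11 adipocyte markers, Adipoq included, rho was 0.72 (permutation p = 1e-05, 0.000225 after adjustment over 90 relations between members and marker lists). When a straight line was drawn through the RPKM values, Thrsp at an Adipoq of 0 was 0.322 ± 0.415 RPKM (SE), or 19.4% of its mean.

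The other 8 members did not pass. The slope was 0.21 for Scd1 (SE 0.066, adjusted p = 0.107), 0.14 for Mlxipl (SE 0.048, adjusted p = 0.134), 0.099 for Fasn (SE 0.038, adjusted p = 0.202) and 0.080 for Acaca (SE 0.032, adjusted p = 0.222). Spearman's rho with Adipoq was 0.43 for Scd1 (permutation p = 0.00194), 0.41 for Mlxipl (permutation p = 0.00321) and 0.32 for both Fasn and Acaca (permutation p of 0.0223 and 0.0233), among 9 members compared with Adipoq. Acly, Elovl6, Scd2 and Srebf1 had slopes between -0.010 and 0.038, with rho of at most 0.17. The level that the straight line gave at an Adipoq of 0 was 32.7 of 43.6 RPKM for Scd1, and it was 73.7% of the mean for Mlxipl, 91.2% for Fasn, 91.9% for Acaca and 99.8% for Acly. On these lines the levels of Fasn, Acaca and Acly at an Adipoq of 0 lay close to their means, whereas that of Thrsp did not. The call for Thrsp depended on the fattest tumors: without the 13 tumors above 9.32 RPKM of Adipoq its slope was 0.21 (adjusted p = 0.630). With any single tumor left out it passed, with slopes from 0.31 to 0.49. Scd1 passed when Untreated_174 was left out (slope 0.25, adjusted p = 0.0191), and Mlxipl when X10_95 was left out (slope 0.17, adjusted p = 0.0386). Across 13 alternative settings, the limma slope of Scd1 ranged from 0.0073 to 0.48 (adjusted p from 0.0203 to 0.990). Across 12, that of Mlxipl ranged from 0.034 to 0.31 (adjusted p from 0.0907 to 0.921). These settings include the adipocyte score in place of Adipoq.

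Tumors departed from this pattern in both directions. Adipoq was 35.7 RPKM in glargine_67 and 12.4 RPKM in Untreated_195, where Thrsp was only 1.27 and 0.337 RPKM. In glargine_63, Thrsp was 11.6 RPKM, the second highest of 50, and Adipoq 0.066 RPKM, the second lowest. Its Plin1 (0.016 RPKM) and Cidec (0.048 RPKM) ranked 48 of 50, while Fabp4 (41.7 RPKM) ranked 34 and the summed adipocyte markers (46.3 RPKM) ranked 37. The same tumor held the highest Srebf1 (254 RPKM, 2.80 times the median), while Scd1 was 1.40, Acaca 1.33, Acly 1.01, Elovl6 0.990, Scd2 0.982, Fasn 0.829 and Mlxipl 0.343 times its median. Its Epcam was 75.6 RPKM against a median of 4.75 RPKM, but Krt8 was 203.2 RPKM against 173.9 RPKM. The summed epithelial markers were 618 RPKM against a median of 273.9 RPKM. The milk protein genes Csn2 and Csn1s1 were 36.6 and 40.2 RPKM against medians of 3.27 and 4.59 RPKM, and Csn3 was 19.6 RPKM against 8.92 RPKM. The part of these cells in the Thrsp level was not tested.

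Thrsp also moved with markers that themselves moved with Adipoq. Its rho was 0.62 with 5 brown adipocyte markers and 0.64 with 7 milk protein genes (permutation p = 1e-05 and adjusted p = 0.000225 for both). Pearson's r was 0.73 and 0.52 (permutation p of 1e-05 and 0.00032), 0.72 and 0.41 within groups, and 0.62 and 0.51 without the 2 tumors farthest from the median. Adipoq had an r of 0.65 with the brown adipocyte score and of 0.52 with the milk score. Their parts in the Thrsp level were not tested. Of the other members, Scd1 had a rho of 0.46 with the adipocyte score (permutation p = 0.00082, adjusted p = 0.00671; r 0.53), and Mlxipl of 0.44 (permutation p = 0.0014, adjusted p = 0.0105; r 0.43). Mlxipl had a rho of 0.49 with the brown adipocyte markers (permutation p = 0.00031, adjusted p = 0.00399; r 0.41) and of 0.30 with 5 skeletal muscle markers (permutation p = 0.0319, adjusted p = 0.179; r 0.32). Of the brown adipocyte markers, Cox8b and Cox7a1 are also muscle subunits of cytochrome oxidase, and the defining Ucp1 and Elovl3 averaged 0.26 and 0.044 RPKM and were below the test's floor. The part of either tissue in these relations was not tested. Scd1 had a rho of 0.47 with the milk protein genes (permutation p = 0.00078, adjusted p = 0.00671; r 0.44) and of 0.43 with 4 basal epithelial markers (permutation p = 0.00227, adjusted p = 0.0157; r 0.45).

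**Figure D2:**
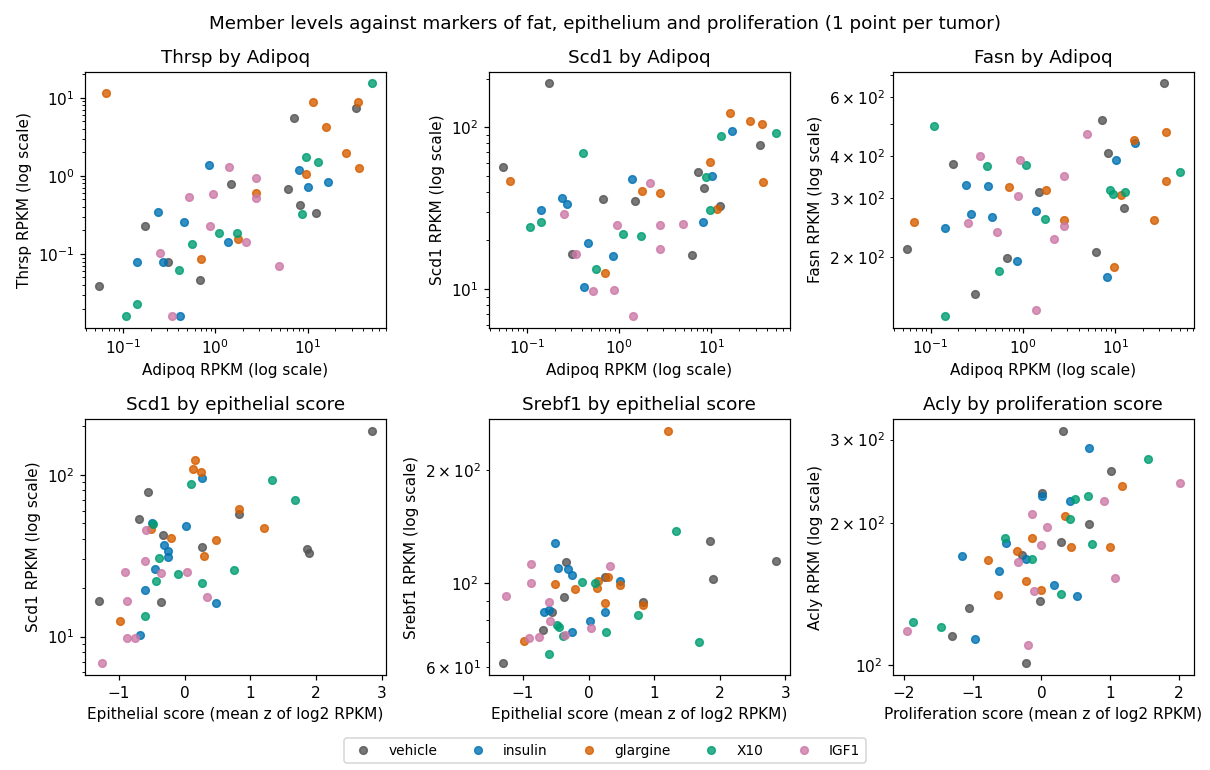
Member RPKM (log scale) against Adipoq RPKM (log scale; Thrsp, Scd1, Fasn), the epithelial score (Scd1, Srebf1) and the proliferation score (Acly), both scores being mean z-scores of log2 RPKM; each point is a tumor, colored by group. Thrsp tended to be higher where Adipoq was higher, with glargine_63 at the upper left, Untreated_174 lies at the upper right of the plot of Scd1 by epithelial score, and Acly was higher where the proliferation score was higher.

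Epithelial content was tested in the same way, with treatment and Adipoq as terms. The epithelial score, the mean z-score of 9 markers such as Epcam, Cdh1 and Krt8, had an r of 0.023 with Adipoq (permutation p = 0.878, rho 0.063). Of the 9 members, 2 passed, both higher with more epithelium, where 10.9% of tested genes passed and 5.47% were higher. Scd1 had a slope of 0.58 per unit of score (SE 0.13, adjusted p = 0.00181) and Srebf1 of 0.19 (SE 0.057, adjusted p = 0.0224). For the other 7 members, slopes were between -0.18 (Elovl6) and 0.24 (Thrsp), and adjusted p-values were at least 0.345. Fasn had a slope of 0.0083 with a 95% interval from -0.17 to 0.19. Single tumors decided both calls. Without Untreated_174, the slope of Scd1 was 0.44 and its adjusted p 0.0651. Srebf1 had an adjusted p of 0.0786 without Untreated_197 and did not pass without X10_105 either. Scd1 and the epithelial score had an r of 0.55 and a rho of 0.51 (permutation p of 4e-05 and 0.00013, adjusted p = 0.00195 for rho), with an r of 0.46 within groups and of 0.50 without the 2 tumors farthest from the median score. Adipoq and the epithelial score together accounted for 52.9% of the variance of Scd1 on the log2 scale, against 13.4% for Fasn, 14.8% for Acaca and 5.90% for Acly.

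After it was seen that the genes most like Acly included Top2a, a proliferation score was added from Mki67, Top2a, Ccnb1, Cdk1, Birc5 and Aurkb, with treatment, Adipoq and the epithelial score as terms. Of the 9 members, 4 passed, all higher with proliferation, where 12.2% of tested genes passed and 10% were higher. These were the 3 synthesis genes and the elongase. Acly had a slope of 0.33 per unit of score (SE 0.058, adjusted p = 9.11e-05), Fasn of 0.34 (SE 0.080, adjusted p = 0.00366), Acaca of 0.25 (SE 0.069, adjusted p = 0.0125) and Elovl6 of 0.47 (SE 0.10, adjusted p = 0.00173). Scd1, Scd2, Srebf1, Mlxipl and Thrsp had slopes between -0.073 and 0.20 and did not pass, except that Srebf1 passed without X10_105 (adjusted p = 0.0307). Acly had a rho of 0.66 with this score and Elovl6 of 0.56 (permutation p of 1e-05 and 4e-05, adjusted p of 0.000225 and 0.00072). Their r was 0.66 and 0.57, within groups 0.67 and 0.60, and without the 2 tumors farthest from the median score 0.63 and 0.48. Top2a, Birc5 and Aurkb lie on chromosome 11, as do Acly, Fasn and Acaca. Top2a was itself among the genes most like Acly, so that the relation of Acly with this score in part repeats the observation that led to it. With the 3 markers outside chromosome 11, Top2a left out, rho was 0.54 for Acly and 0.56 for Elovl6. With that score, Acly, Acaca and Elovl6 still passed, while Fasn had a slope of 0.22 and did not. Acaca did not pass without IGF1_160 (adjusted p = 0.0718).

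**Figure D3:**
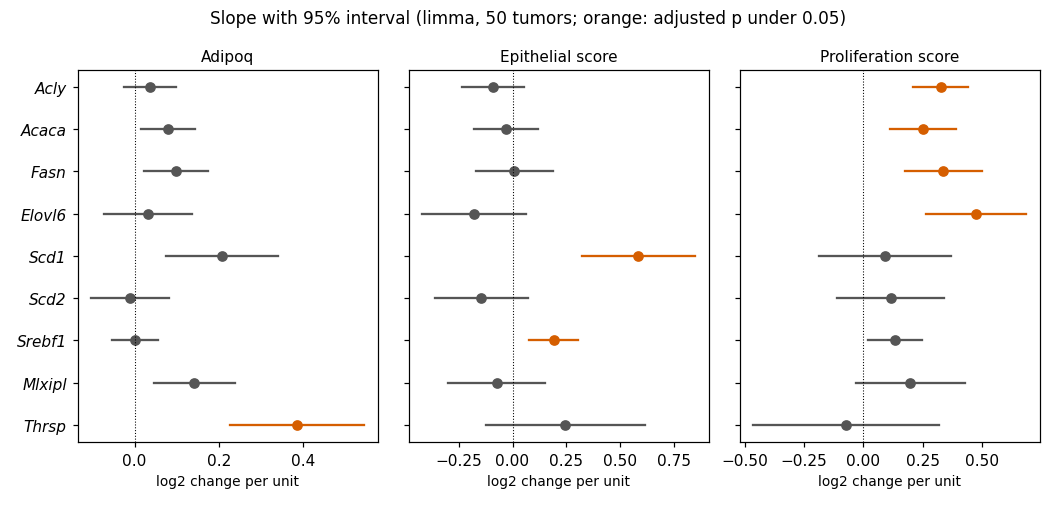
Slope of each member on log2 Adipoq, the epithelial score and the proliferation score, with 95% intervals from limma over 50 tumors; the x axes give the log2 change per unit of each measure, and orange marks an adjusted p under 0.05. Thrsp is called for Adipoq, Scd1 and Srebf1 for epithelium, and Acly, Acaca, Fasn and Elovl6 for proliferation.

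The treatments were then compared. Mean Fasn was 333 ± 160 RPKM in vehicle (SD, n = 10), 290 ± 82.4 in insulin, 317 ± 88.1 in glargine, 312 ± 102 in X10 and 301 ± 98.7 in IGF1 tumors. The groups overlapped throughout, with a lowest, median and highest Fasn of 155, 296 and 660 RPKM in vehicle and of 139, 278 and 465 RPKM in IGF1 tumors. Acly was flatter still, with group medians between 169 RPKM (insulin) and 183 RPKM (X10), and Acaca had group means between 56.3 and 64.2 RPKM. Group medians lay between 77.1 (X10) and 98.2 RPKM (glargine) for Srebf1, between 41.0 (IGF1) and 54.2 RPKM (X10) for Scd2, between 3.54 (vehicle) and 4.75 RPKM (IGF1) for Elovl6 and between 0.298 (vehicle) and 0.572 RPKM (glargine) for Mlxipl. Relative to vehicle, the log2 difference of Fasn was -0.11 with insulin, 0.022 with glargine, -0.037 with X10 and -0.076 with IGF1, and its 95% interval reached from -0.53 to 0.38 for IGF1 and from -0.49 to 0.42 for X10. For Acly the interval for IGF1 was -0.39 to 0.31.

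None of the 9 members passed an adjusted p of 0.05 in limma in any of 7 treatment comparisons, nor in the F test over the 5 groups. The background was low as well. The percentage of tested genes called was 0 for insulin versus vehicle, 0 for glargine versus vehicle, 0.0657 for X10 versus vehicle, 0.00598 for IGF1 versus vehicle, 0.155 for X10 and IGF1 versus the other 3 groups, 0 for glargine versus insulin, 0.102 for X10 versus insulin and 0.102 for the F test. Where 0 genes were called, limma gave an unadjusted p under 0.05 to 1865 genes for insulin and 1043 for glargine versus vehicle, and to 663 for glargine versus insulin. At an unadjusted p under 0.05, 1 member was found for glargine versus vehicle (Thrsp), 1 for IGF1 versus vehicle (Scd1), 1 for X10 and IGF1 versus the rest (Scd1), 1 for glargine versus insulin (Thrsp) and 2 for the F test (Scd1, p = 0.0095, and Thrsp, p = 0.0353, with adjusted p of 0.253 and 0.351). In the remaining comparisons, insulin or X10 versus vehicle and X10 versus insulin, it was 0 members. Over all tested genes, the share at an unadjusted p under 0.05 was 11.1%, 11% and 11.3% in these last 3 comparisons. It was 6.23% for glargine versus vehicle, 8.84% for IGF1 versus vehicle, 10.5% for X10 and IGF1 versus the rest, 3.96% for glargine versus insulin and 13.1% for the F test, so that counts of 0 to 2 of 9 members are not far from the background. Comparisons that share the vehicle or insulin tumors are not independent of each other.

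Scd1 was lowest in IGF1 tumors, at 21.0 ± 11.6 RPKM against 55.3 ± 49.8 RPKM in vehicle tumors (SD, n = 10 each). Its lowest, median and highest values were 6.81, 21.3 and 45.6 RPKM in IGF1 tumors and 16.3, 39.1 and 186.7 RPKM in vehicle tumors. In insulin, glargine and X10 tumors the medians were 32.3, 46.5 and 28.3 RPKM. All groups overlapped, although the highest IGF1 tumor was below the highest tumor of every other group. The log2 difference was -1.21 (SE 0.41, p = 0.0045, adjusted p = 0.361) and did not pass, and it was -0.97 without Untreated_174. X10 and IGF1 tumors together differed from the rest by -0.66 (SE 0.26, p = 0.0153, adjusted p = 0.322). IGF1 tumors also had the lowest mean Adipoq. Their sum of 9 epithelial markers ranged from 12.9 to 682 RPKM with a median of 136.3 RPKM, against 12.5 to 5116 RPKM with a median of 348 RPKM in vehicle tumors. The 9 markers differed by a median of -2.18 on the log2 scale between these groups, with 7 at an unadjusted p under 0.05 and 0 called, and Epcam and Krt8 were above 0 in all tumors. With Adipoq as a covariate the limma difference of Scd1 to vehicle was -1.03 (p = 0.00869, adjusted p = 0.349). With Adipoq and the epithelial score it was -0.41 (p = 0.241, adjusted p = 0.962). Treatment groups accounted for 23.9% of the variance of Scd1, where 8.16% is the average without any effect. Beyond Adipoq and the epithelial score they accounted for 3.24%, to which that average does not apply. Adipoq and the epithelial markers stood lower in IGF1 than in vehicle tumors as well, so that treatment and tissue content cannot be told apart here. The part of fat and epithelium in the Scd1 difference was not tested.

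Thrsp was highest in glargine tumors. Its lowest, median and highest values were 0.086, 1.62 and 11.6 RPKM there, against 0.039, 0.380 and 7.38 RPKM in vehicle and 0.016, 0.302 and 1.39 RPKM in insulin tumors. The medians in X10 and IGF1 tumors were 0.188 and 0.372 RPKM. Glargine differed from vehicle by 1.10 on the log2 scale (SE 0.54, p = 0.0471, adjusted p = 0.789) and from insulin by 1.53 (SE 0.54, p = 0.00691, adjusted p = 0.990), neither of which passed. With Adipoq as a covariate these became 0.67 (p = 0.147) and 0.84 (p = 0.081). Fat and milk protein genes stood higher in the same group: 12 adipocyte markers summed to 28.5 to 875 RPKM (median 259) against 20.9 to 377 RPKM (median 100.4) in vehicle tumors, and 7 milk protein genes to 1.03 to 982 RPKM (median 153) against 1.15 to 322 RPKM (median 11.1). Of these, 3 of the 10 tested adipocyte markers and 6 of the 7 milk protein genes had an unadjusted p under 0.05 versus vehicle, with 0 called. Their part in the Thrsp level was not tested. The plot of differences from vehicle shows that most intervals crossed 0, apart from Scd1 with IGF1 and Thrsp with glargine.

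**Figure D4:**
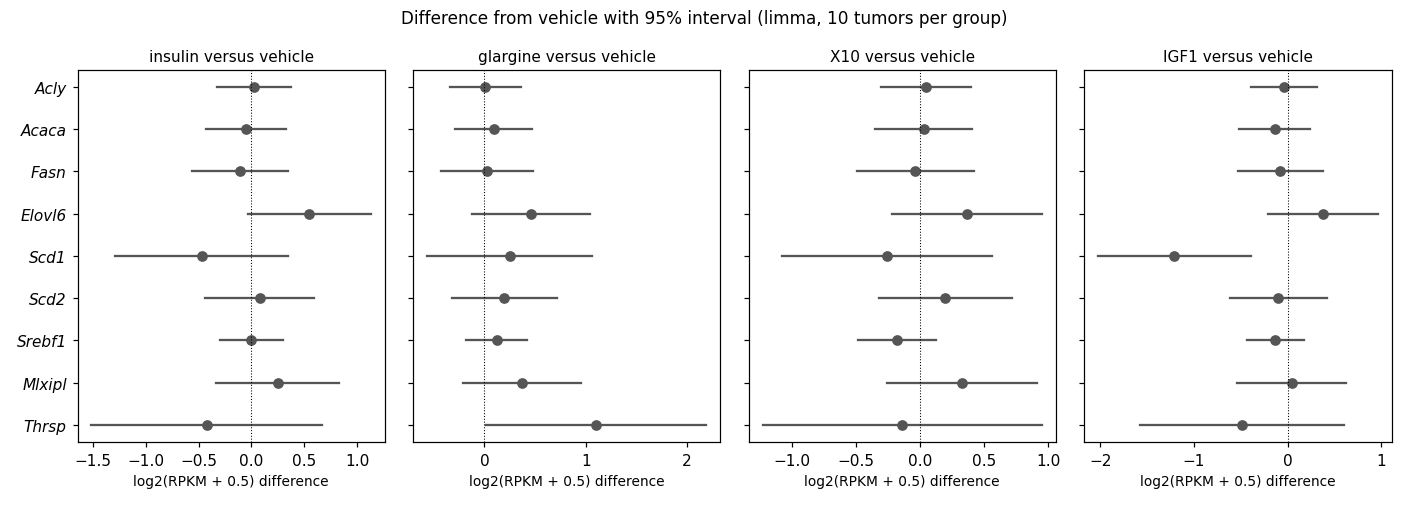
Difference of each member from vehicle on the log2(RPKM + 0.5) scale for insulin, glargine, X10 and IGF1, with 95% intervals from limma (10 tumors per group, not adjusted for the number of genes; the x scales differ between panels). Only the interval of Scd1 with IGF1 (-2.02 to -0.39) and that of Thrsp with glargine (0.015 to 2.19) exclude 0, and neither passes after adjustment over all tested genes.

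Finally, it was examined which members varied together. Of the 36 pairs, 31 had a positive rho over the 50 tumors, with a median of 0.18. The share of positive pairs among all tested genes was not computed. For Acly, a rho as low as 0.0045 (Srebf1) still ranked 9736 among 16732 genes, so that most genes had a positive rho with Acly. The closest pair was Fasn and Acly, with a rho of 0.75 and an r of 0.72 (permutation p = 1e-05 for r), and 0.73 after treatment, Adipoq and the epithelial score had been taken out. Among 16732 other genes, Acly was the one most like Fasn. Acly and Elovl6 followed with a rho of 0.58, and Fasn and Acaca with 0.53. The regulator Srebf1 had a rho of 0.037 with Fasn, 0.0045 with Acly and 0.19 with Acaca, and its closest member was Thrsp, with a rho of 0.33 (r 0.43, permutation p = 0.00214, and 0.17 without the 2 tumors farthest from the median). Scd1 and Scd2, which lie in the same gene cluster on chromosome 19, had a rho of 0.12 and an r of 0.0058.

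The genes most like a member often lay on the same chromosome. The 3 genes with the highest rho were Acly, Foxk2 and Gm6104 (a processed pseudogene) for Fasn, Rps6kb1, Ints2 and Trim37 for Acaca, Nol11, Top2a and Foxk2 for Acly, Scd4, Btrc and Cul4b for Scd2, and Atpaf2, B9d1 and Top3a for Srebf1. All 3 named for Acaca, for Acly and for Srebf1 lie on chromosome 11, as these members do. For Elovl6 they were Ap1ar and Isg20l2, on chromosome 3 like Elovl6, and Dhx15. For Scd1 they were Hp (haptoglobin), Col9a1 and Klhdc7a, for Thrsp Apoc1, Gpd1 and Fabp4, and for Mlxipl Myl2, Fhl1 and Gm4980. Fabp4 and Gpd1 are abundant in fat, and Myl2 is a myosin light chain of muscle. Of the 100 genes most like Acaca, 65 were on chromosome 11, which holds 8.46% of the tested genes, and 39 lay within 5 Mb of Acaca, where 0.810% of tested genes lie. Within 5 Mb of the member lay 16 of 100 for Srebf1, 14 for Acly, 9 for Fasn, 7 for Scd2, 5 for Elovl6, 1 each for Thrsp and Mlxipl, and 0 for Scd1. On the member's own chromosome lay 45 of 100 for Elovl6 (4.79% of tested genes), 35 for Scd2 (3.09%), 32 for Acly, 31 for Srebf1 and 28 for Fasn (8.46% each). It was 9 of 100 for Thrsp (6.99%), 11 for Mlxipl (5.96%) and 1 for Scd1 (3.09%).

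The mean z-score of the tested genes within 5 Mb, lipid genes left out, was compared with each member. This comparison was chosen after the values were seen. It gave an r of 0.74 for Acaca over 133 neighbors (rho 0.67, permutation p = 1e-05 for both; r 0.75 within groups and 0.70 without the 2 tumors farthest from the median), of 0.62 for Elovl6, 0.51 for Srebf1, 0.42 for Fasn, 0.39 for Scd2 and 0.35 for Acly. The other 3, Thrsp, Mlxipl and Scd1, gave 0.29, 0.17 and 0.057. Over 16528 genes, the median r of a gene with its own neighbors, here with lipid genes included, was 0.38. On that measure, 7.88% of genes had a higher r than Acaca and 83.9% a higher r than Scd1. Such a relation was common in these tumors, and DNA copy number was not analysed here. When the neighbor scores of both genes were held fixed, the r of Fasn and Acly went from 0.72 to 0.67 and that of Acly and Elovl6 from 0.58 to 0.51, while that of Fasn and Acaca went from 0.57 to 0.81.

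**Figure D5:**
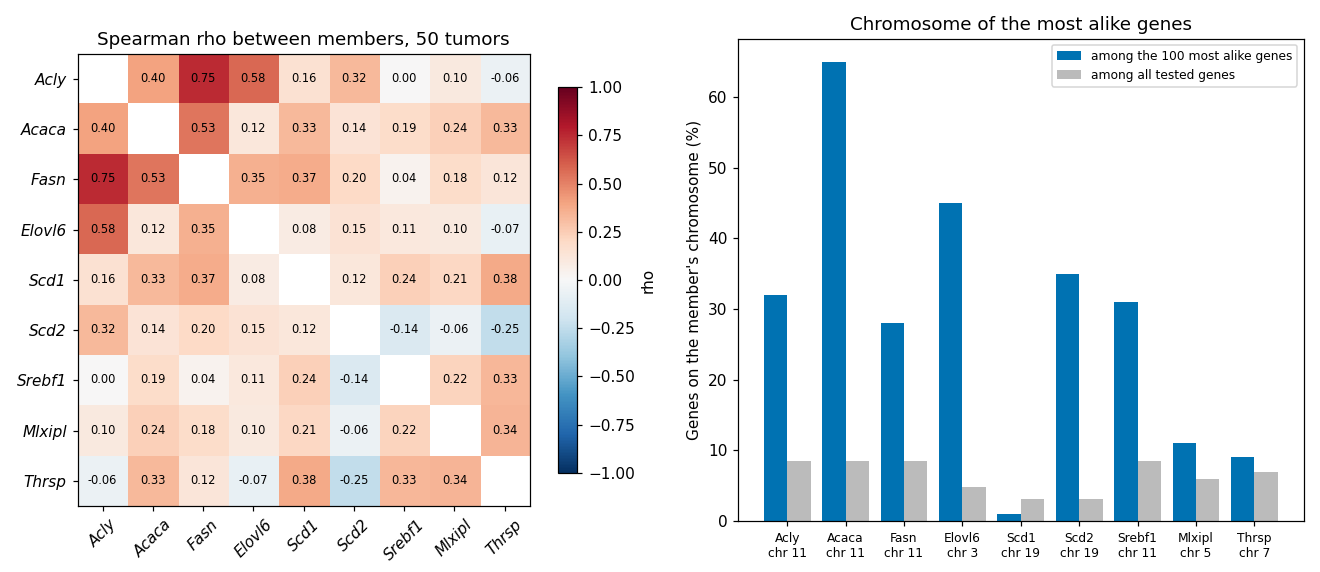
Left, Spearman's rho between each pair of members over 50 tumors (color scale from -1 to 1); right, for each member, the percentage of its 100 most alike genes (blue) and of all tested genes (grey) that lie on its chromosome. Fasn and Acly form the closest pair (0.75), and 65 of the 100 genes most like Acaca lie on chromosome 11 against 8.46% of tested genes.

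Further genes of the pathway were considered from a list of 39, of which 38 were in the table and 35 were tested. In each of the 7 treatment comparisons and in the F test, 0 of 35 passed in limma, with 2 to 5 at an unadjusted p under 0.05, where 3.96% to 13.1% of all tested genes were, so that these counts were near the background. On Adipoq, 2 of 35 passed, both higher, where 1.47% of all tested genes passed and 1.39% were higher. These were Acacb, the carboxylase of oxidative tissues and fat, with a slope of 0.23 (SE 0.040, adjusted p = 0.000194), and Pparg, the transcription factor of adipocyte differentiation, with 0.19 (SE 0.035, adjusted p = 0.000513). On the epithelial score, 2 were higher and 2 lower, where 5.47% and 5.46% of all tested genes were, so that the share was near the background. The elongase Elovl7 had a slope of 0.75 and the acyltransferase Agpat2 of 0.34, against -0.28 for Elovl5 and -0.33 for the malic enzyme Me1. On proliferation, 2 of 35 were higher and 3 lower, where 10% and 2.18% of all tested genes were. Hsd17b12, an enzyme of chain elongation, and Mlx, the partner of ChREBP, were higher, with slopes of 0.19 each, and Dgat2, which makes triglyceride, the citrate carrier Slc25a1 and the liver X receptor Nr1h2 were lower, with -0.33, -0.19 and -0.18. The median slope over the 35 genes was 0.0041 on Adipoq, 0.025 on the epithelial score and 0.026 on proliferation, against 0.0064, -0.028 and 0.042 over all tested genes.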

How the data were processed

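RNA of 50 tumors was Poly-A selected and sequenced on the Ion Proton. The authors aligned reads to GRCm38 with TopHat2 2.0.10, aligned the remainder with Bowtie2, counted reads per gene with HTSeq 0.6.1, and deposited RPKM values, that is, reads scaled to library size and gene length, without log transformation. RPKM values are not counts, so limma 3.58.1 (R 4.3.3, empirical Bayes with intensity trend) was run on log2(RPKM + 0.5) over 16733 genes averaging 0.5 RPKM or more. All 5 groups shared a fit, and p-values were adjusted by Benjamini-Hochberg across the tested genes. This scale understates changes of low genes such as Thrsp and Mlxipl. The fits were tested on simulated data. Library size was taken from the coarsest step on which nearly all low values lay as whole multiples, after rounding to 1 read per 100 M. Depth limits Thrsp and Mlxipl most. Correlations used 100000 permutations (two-sided; Python 3.11.15, SciPy 1.17.1).

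Groups and tumor numbers came from the sample titles, with Untreated taken as vehicle, and p-values measure the spread between these tumors. All 9 members were named, with the 3 genes of highest rho per member and the pathway genes that passed. Members, marker lists and pathway list were chosen with earlier results of these data known. Alternatives were pseudocounts, filters, scaling, covariates and left-out tumors. The proliferation score, the chromosomal neighbors, library size as a covariate, leaving out single tumors and the log scale for outliers were chosen after seeing the data.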

Additional observations from a re-analysis of the deposited data

Results flagged for a closer look

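Within groups of 10 tumors, the gap between the most extreme value and its nearest neighbor, relative to the range of the group, exceeded Dixon's limit at the 0.05 level in 9 of 45 combinations of member and group, and chance gives about 1 in 20 for normal values, which RPKM values with a long upper tail are not. On the log2(RPKM + 0.5) scale 4 combinations exceeded it, namely Thrsp in X10_105, Srebf1 in glargine_63 and Mlxipl in insulin_15, all high, and Scd2 in Untreated_174, which was low. On the RPKM scale, all 9 were high values, in 7 tumors. X10_105 was flagged for Thrsp (15.3 RPKM, next 1.73) and Srebf1 (138 RPKM, next 101), at an Adipoq of 49.9 RPKM. The tumor insulin_15 was flagged for Acaca (93.0 RPKM, next 66.6) and Mlxipl (3.52 RPKM, next 1.15), at an Adipoq of 10.2 RPKM and with 643 RPKM of summed skeletal muscle markers against a median of 19.1 RPKM. Untreated_174 was flagged for Scd1 (186.7 RPKM, next 77.7), with an epithelial sum of 5116 RPKM. The tumor insulin_21 was flagged for Scd1 (95.5 RPKM, next 50.2) at an Adipoq of 16.5 RPKM. The tumor glargine_63 was flagged for Srebf1 (254 RPKM, next 104) at an Adipoq of 0.066 RPKM, glargine_62 for Scd2 (118.1 RPKM, next 65.1) and insulin_14 for Elovl6 (10.7 RPKM, next 6.98). The part of fat, epithelium or muscle in these values was not tested.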

How the results depend on the processing

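For the 7 treatment comparisons and the F test, 0 members were called under any of 102 alternatives or with any single tumor left out (0 to 0 of 9); the lowest adjusted p was 0.232, for Scd1 in the F test among genes averaging 5 RPKM or more, and 0.130 with a tumor left out. On Adipoq, the count of members called was 1. It became 0 among genes averaging 5 RPKM or more, where Thrsp, Mlxipl and Elovl6 were no longer tested. It was also 0 without the 13 tumors of highest Adipoq. It became 2 without treatment terms and 2 with the epithelial score as a covariate, as Scd1 then passed (slopes of 0.26 and 0.23). Over its 13 alternative settings the slope of Scd1 ranged from 0.0073 to 0.48, with an adjusted p of up to 0.990 in limma. The count was 1 to 2 with a tumor left out. On the epithelial score the count was 2, became 1 without the 13 tumors of highest Adipoq, where Srebf1 had a slope of 0.20 (adjusted p = 0.102) in fewer tumors, and was 1 to 2 with a tumor left out. On proliferation it was 4, and 3 to 5 with a tumor left out.

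Slopes near 0 changed sign without being called. On Adipoq these were Scd2 (0.0038 without the 13 tumors of highest Adipoq, 0.0059 without treatment terms, 0.0049 without the 2 highest tumors), Srebf1 (-0.0056 with a pseudocount of 0.1, -0.0050 with upper quartile scaling, -0.036 without these 13 tumors, -0.022 without the 2 highest tumors) and Elovl6 (-0.0017 with quantile normalization). On the epithelial score these were Fasn (-0.022 with quantile normalization, -0.013 without Adipoq, -0.029 with Epcam alone) and Acaca (0.012 without these 13 tumors), and on proliferation Scd1 (-0.091 without the Adipoq and epithelial terms). The cause was not tested. All 90 alternative levels stayed within 1 SD of the group means. Correlations with Adipoq had a permutation p under 0.05, not adjusted, for 5 of 9 members, and for 4 with the adipocyte score. Such a count was not made over all genes. For the limma slope on Adipoq, 12.8% of all tested genes had an unadjusted p under 0.05, and 1 of 9 members passed after adjustment.

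No paired analysis was run, because the titles name no pairs and no title number recurs between the groups compared. Depth limits Thrsp most, with about 1.47 reads in the lowest tumor.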
